A study of Mus musculus with 8 samples.

Results

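The genes described here encode 10 serotonin receptors of the mouse: Htr1a, Htr1b, Htr1d, Htr1f, Htr2a, Htr2b, Htr3a, Htr3b, Htr4 and Htr7. They were found by gene symbol among the 40800 genes of a table of RNA levels from dorsal root ganglia, where the cell bodies of sensory neurons lie. Ganglia came from 4 wild-type mice and 4 mutant mice in which both copies of Tmem184b carry a gene trap. Mice of both groups were C57BL/6 and aged 6 months. Such a trap ends the transcript early, and the labels name no promoter or cell type that would limit it to some cells. They also name no sex, litter or batch. The columns are numbered wild type 1, 3, 4 and 8 and mutant 1 to 4, and each is a separate mouse per the design text. The question the design sets is which RNA levels differ between the genotypes.

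Serotonin, or 5-hydroxytryptamine, is released in the skin and other tissues by platelets and mast cells and acts on the endings of sensory neurons, where it can evoke pain and itch. Receptors of the Htr1 class couple to Gi/o proteins and lower cyclic AMP. Those of the Htr2 class couple to Gq proteins and activate phospholipase C, and Htr4 and Htr7 couple to Gs proteins and raise cyclic AMP. Htr3a and Htr3b are subunits of a cation channel that serotonin opens directly. In mouse ganglia, several of these genes are known from small groups of neurons. Htr1f is a known marker of the NP3 class, itch neurons that make the peptides somatostatin (Sst) and natriuretic peptide B (Nppb). NP1 and NP2 are the other non-peptidergic classes, marked by the receptors Mrgprd and Mrgpra3.

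Reads of Tmem184b itself numbered 1086 to 1456 in wild-type mice and 34 to 58 in mutants, which matches the labels. Library totals ranged from 6183618 to 7983821 reads. In CPM, the reads of a gene scaled to a common library total, a single read counted for 0.125 to 0.162. Values are log2 CPM with a small prior count added by the authors, and differences are mutant minus wild type on that scale, which understates the change of genes with few reads. A gene was called when limma's adjusted p was under 0.05. Of 15030 genes tested, 820 (5.46%) were called, 423 of them (2.81%) higher and 397 (2.64%) lower in mutants. The split depended on the scaling: 51.6% of the calls were higher as deposited, 22.4% after median centring and 39.1% after quantile normalization. Xist RNA, made from the inactive X chromosome of female cells, was abundant in wild types 1, 4 and 8 and in mutants 1 and 2, and had 2 to 7 reads in the other 3 mice. The same 3 receptor genes were called with Xist as a covariate.

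All 10 receptor genes had enough reads to be tested. Htr1a, Htr1f and Htr4 fell in the mutants, and none of the 10 rose. The 3 calls make up 3 of 10 members, beside 2.64% of all genes called lower. The median difference over the members was -0.24, beside 0.07 over all genes tested. In 6 members the mutant mean was lower and in 4 it was higher, while 35.6% of all genes tested had a lower value in mutants. The groups did not overlap for 4 members, beside 12.4% of all genes: Htr1a, Htr1f and Htr4 on the lower side and Htr1d on the higher side. The members share tissue, mice and in part cells, so they are not independent of each other. They were chosen with earlier results of these data known, so their counts are a description.

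**Figure D1:**
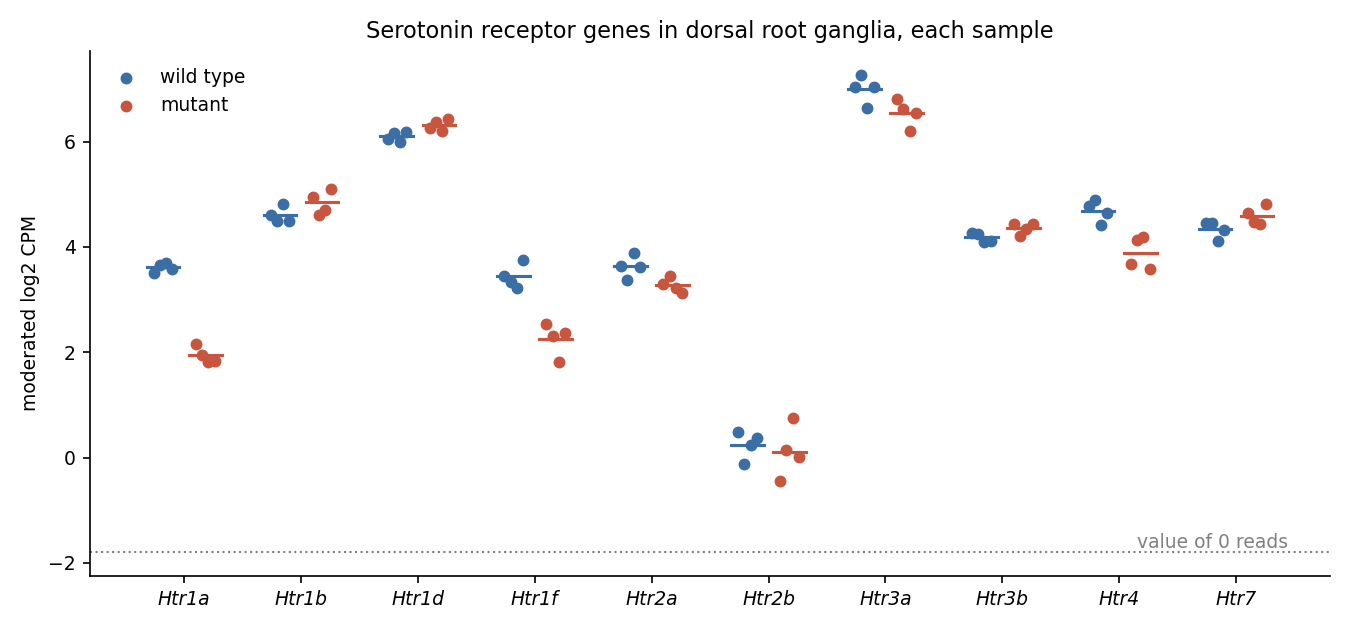
Moderated log2 CPM (vertical axis) of each of the 10 serotonin receptor genes (horizontal axis) in each mouse (points; blue wild type, red mutant), with a short line at the mean of each group of 4 and a dotted line at the value of 0 reads. All mutant points lie below all wild-type points for Htr1a, Htr1f and Htr4, and above them for Htr1d.

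In the Gi/o-coupled class, 2 of 4 genes fell. Htr1a (ENSMUSG00000021721) encodes the 5-HT1A receptor, an inhibitory receptor best known as the autoreceptor on serotonin neurons of the brain. It lies on chromosome 13 at 105443639-105448122, plus strand, in GRCm38, and its gene model is a single exon block of 4.484 kb. In log2 CPM, Htr1a measured 3.51, 3.65, 3.70 and 3.59 for wild types 1, 3, 4 and 8, against 2.16, 1.94, 1.82 and 1.84 for mutants 1 to 4. Every mutant was more than 1 log2 unit below every wild type. The wild types held 70 to 98 reads of Htr1a and the mutants 21 to 28. Mean level was 12.0 ± 0.701 CPM in wild types and 3.57 ± 0.435 CPM in mutants (SD, n = 4 each), or 29.8% of wild type. The log2 difference of Htr1a was -1.67 (SE 0.147, 95% interval -1.99 to -1.36, limma adjusted p = 1.70e-05). It was the eleventh largest of the 397 falls. In bulk tissue, fewer cells of a type and less of an RNA per cell cannot be told apart.

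Htr1f (ENSMUSG00000050783), the 5-HT1F receptor and the target of the migraine drug lasmiditan, fell as well. It lies on chromosome 16 at 64924729-65105854, minus strand, with 3 exon blocks. Its log2 CPM was 3.45, 3.33, 3.22 and 3.76 in wild types 1, 3, 4 and 8, and 2.54, 2.32, 1.82 and 2.37 in mutants 1 to 4. The groups were separate, with mutant 3 lowest and wild type 8 highest. Reads of Htr1f numbered 61 to 105 in wild types and 21 to 37 in mutants. Its mean fell from 10.7 ± 1.84 to 4.58 ± 0.966 CPM (SD, n = 4 each), to 42.9% of wild type. The log2 difference was -1.18 (SE 0.181, 95% interval -1.57 to -0.79, limma adjusted p = 0.0021).

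Htr1b (ENSMUSG00000049511) and Htr1d (ENSMUSG00000070687) encode the receptors that triptan drugs act on, and neither was called. Htr1d, on chromosome 4 at 136423524-136444398, plus strand, had log2 CPM of 6.04, 6.17, 5.99 and 6.18 for wild types 1, 3, 4 and 8 and of 6.26, 6.37, 6.20 and 6.43 in mutants 1 to 4. Each mutant was above each wild type, though the lowest mutant and the highest wild type were close. The difference was 0.22 (SE 0.0716, 95% interval 0.07 to 0.37, limma adjusted p = 0.0883), with a two-sided exact permutation p of 0.0286, the smallest that 70 assignments of the mice allow. With median centring, the difference of Htr1d was 0.13 (limma adjusted p = 0.368). Mean CPM of Htr1d was 68.3 ± 4.49 in wild types and 79.6 ± 5.77 in mutants (SD, n = 4 each). Htr1b, on chromosome 9 at 81628291-81633828, minus strand, had 152, 178, 189 and 176 reads for wild types 1, 3, 4 and 8 and 206, 149, 168 and 238 for mutants 1 to 4, and the groups overlapped. Its log2 difference was 0.24 (95% interval -0.01 to 0.49, limma adjusted p = 0.258). Exons of Htr1b overlap those of D430036J16Rik on the other strand and share 729 bases with it, so reads of the pair may be mixed: use of strand in counting is not given in the sources used here.

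Promoter sequences show how Htr1a and Htr1f compare with Htr1b, a near relative that was not called. Each is the stretch from 250 bases before to 50 bases after the transcription start, in RefSeq's GRCm38.p6 annotation, written 5′ to 3′ on the gene's strand. The coordinates are chr13:105443443-105443742 (plus strand) for Htr1a, chr16:65105735-65106034 (minus strand) for Htr1f and chr9:81633783-81634082 (minus strand) for Htr1b. Capitals mark the core motif of RUNX factors, which include Runx1, a known regulator of non-peptidergic sensory neurons.
Htr1a: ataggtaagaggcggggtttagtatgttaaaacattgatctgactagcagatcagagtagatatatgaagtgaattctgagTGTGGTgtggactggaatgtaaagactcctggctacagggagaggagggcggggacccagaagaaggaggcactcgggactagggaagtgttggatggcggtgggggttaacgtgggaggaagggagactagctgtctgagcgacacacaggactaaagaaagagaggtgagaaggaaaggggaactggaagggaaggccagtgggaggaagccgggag
Htr1f: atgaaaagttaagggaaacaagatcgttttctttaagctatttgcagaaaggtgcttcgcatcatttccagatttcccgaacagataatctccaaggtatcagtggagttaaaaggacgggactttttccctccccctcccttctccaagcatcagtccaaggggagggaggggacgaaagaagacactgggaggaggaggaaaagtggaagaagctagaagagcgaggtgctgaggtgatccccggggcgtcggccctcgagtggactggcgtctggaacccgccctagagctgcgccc
Htr1b: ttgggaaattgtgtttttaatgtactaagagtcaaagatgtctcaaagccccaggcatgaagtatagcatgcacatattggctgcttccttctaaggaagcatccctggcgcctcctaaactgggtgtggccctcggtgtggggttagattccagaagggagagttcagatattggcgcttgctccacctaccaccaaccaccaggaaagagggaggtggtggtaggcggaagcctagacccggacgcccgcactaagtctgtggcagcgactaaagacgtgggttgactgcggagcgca
The RUNX core, TGTGGT, was searched on both strands, as were the CRE core TGACG, bound by factors that respond to cyclic AMP, and the TATA box TATAAA. The RUNX core was found once in the Htr1a stretch and in neither of the others, and the other motifs in none of the 3. Of 32851 promoters of this length, 16.8% held the RUNX core, 20.8% the CRE core and 13.6% the TATA box. A sequence of this kind was used for 8 of the 10 members, and none for Htr4, which also fell, or for Htr3a. Htr3b held the RUNX core at 2 positions and Htr7 held the CRE core once.

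Of the Gs-coupled receptors, Htr4 fell and Htr7 was not called. Htr4 (ENSMUSG00000026322), on chromosome 18 at 62324204-62496577, plus strand, encodes a receptor that raises cyclic AMP and is best known from neurons of the gut. Its log2 CPM was 4.78, 4.89, 4.42 and 4.64 in wild types 1, 3, 4 and 8, and 3.68, 4.12, 4.18 and 3.59 in mutants 1 to 4. Mutants 2 and 3 came nearest to the wild types, but no mutant reached wild type 4, the lowest of them. Its mean fell from 25.6 ± 3.54 to 14.8 ± 3.13 CPM (SD, n = 4 each), to 57.9% of wild type. The log2 difference of Htr4 was -0.79 (SE 0.145, 95% interval -1.10 to -0.48, limma adjusted p = 0.00625). The call was lost when limma modelled the variance with no trend on expression (adjusted p = 0.0732).

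Htr7 (ENSMUSG00000024798), on chromosome 19 at 35958734-36057507, minus strand, encodes the other Gs-coupled receptor and is known from serotonin-evoked itch. It had 136, 173, 115 and 157 reads in wild types 1, 3, 4 and 8 and 166, 135, 138 and 195 in mutants 1 to 4. The groups overlapped, with mutant 4 highest and wild type 4 lowest in log2 CPM. The log2 difference of Htr7 was 0.25 (SE 0.113, 95% interval 0.01 to 0.49, limma adjusted p = 0.211), and mean CPM was 20.0 ± 2.17 in wild types and 23.9 ± 3.05 in mutants (SD, n = 4 each).

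Neither channel subunit was called, and Htr3a was the most abundant member per kilobase in every mouse. Htr3a (ENSMUSG00000032269), on chromosome 9 at 48899213-48911099, minus strand, encodes the subunit that can form a channel by itself. Its log2 CPM was 7.04, 7.27, 6.63 and 7.03 in wild types 1, 3, 4 and 8, and 6.81, 6.63, 6.20 and 6.54 in mutants 1 to 4. The groups overlapped only through wild type 4 and mutant 1: the lowest wild type lay between the highest mutants. Mean CPM of Htr3a was 129 ± 22.7 in wild types and 94.0 ± 16.2 in mutants (SD, n = 4 each). The log2 difference was -0.45 (SE 0.129, 95% interval -0.73 to -0.18, limma adjusted p = 0.0563). Without wild type 4 the difference was -0.57 and limma's adjusted p 0.0099; without mutant 1 these were -0.54 and 0.0457. With median centring they were -0.54 and 0.0271, and with no filter on low genes -0.45 and 0.0403.

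Htr3b (ENSMUSG00000008590), on the same strand of chromosome 9 at 48935008-48964990, encodes a subunit that joins Htr3a in the channel and forms none alone. It had 119, 149, 114 and 135 reads in wild types 1, 3, 4 and 8 and 142, 113, 129 and 149 in mutants 1 to 4, and the groups overlapped. Its log2 difference was 0.17 (95% interval -0.04 to 0.38, limma adjusted p = 0.334). The 2 subunits thus had estimates of opposite sign. Per kilobase of exon, Htr3a exceeded Htr3b 8.02, 9.57, 6.78 and 8.87 times in wild types 1, 3, 4 and 8, and 6.11, 6.24, 4.25 and 5.03 times in mutants 1 to 4. The ratio averaged 8.31 ± 1.20 in wild types and 5.41 ± 0.940 in mutants (SD, n = 4 each), and its groups did not overlap. The ratio was formed after the levels were seen and is given as a description.

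In the Gq-coupled class neither gene was called. Htr2a (ENSMUSG00000034997), on chromosome 14 at 74640840-74709494, plus strand, encodes a receptor linked to serotonin-evoked pain. Its log2 CPM was 3.65, 3.37, 3.89 and 3.62 in wild types 1, 3, 4 and 8 and 3.30, 3.45, 3.23 and 3.13 in mutants 1 to 4. Mutant 2 lay above wild type 3, and the other mutants lay below every wild type. Mean CPM of Htr2a was 12.2 ± 1.84 in wild types and 9.44 ± 0.943 in mutants (SD, n = 4 each), with a log2 difference of -0.35 (SE 0.137, 95% interval -0.65 to -0.06, limma adjusted p = 0.152).

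Htr2b (ENSMUSG00000026228), on chromosome 1 at 86099026-86111970, minus strand, was the scarcest member. It had 7, 5, 6 and 8 reads in wild types 1, 3, 4 and 8 and 3, 5, 9 and 5 in mutants 1 to 4. The groups overlapped, with the mutants spread more widely, and the interval of the log2 difference ran from -0.82 to 0.56 (estimate -0.13, limma adjusted p = 0.859), so a change of moderate size was not detectable at this depth. Exons of Htr2b overlap those of Psmd1, a proteasome gene on the other strand, with 253 shared bases.

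**Figure D2:**
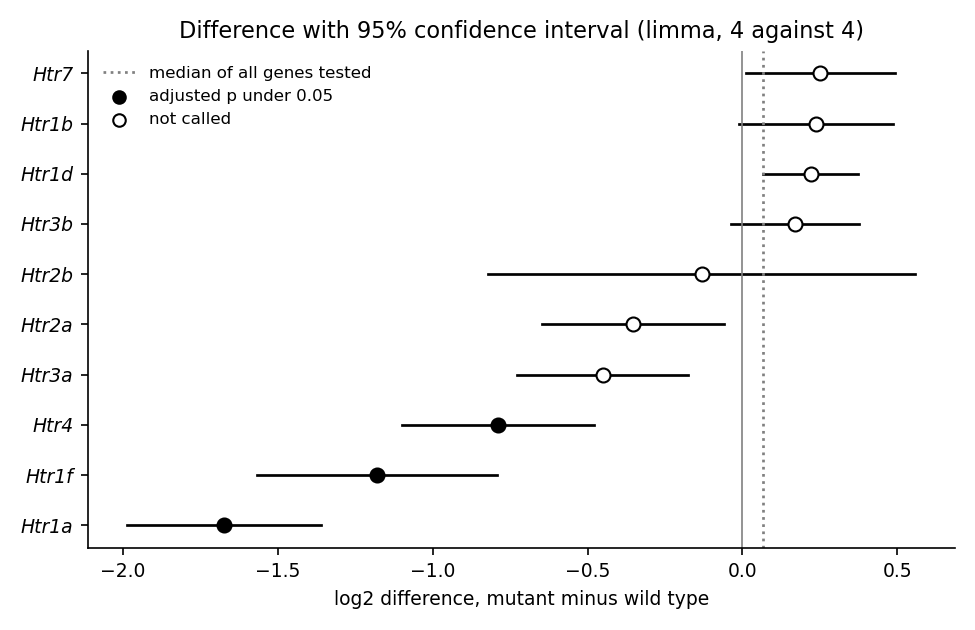
Log2 difference (mutant minus wild type) of each receptor gene with its 95% interval from limma (bars), filled where called, and a dotted line at the median of all genes tested. The estimates run from -1.67 for Htr1a to 0.25 for Htr7, and the intervals of the 3 called genes lie wholly below 0.

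Levels of different genes were compared as CPM per kilobase of exon. In wild types the order ran from Htr3a (61.8 ± 10.9) through Htr1d (21.3 ± 1.40), Htr3b (7.41), Htr7 (5.89), Htr4 (5.22), Htr1b (5.12), Htr1f (4.14), Htr1a (2.67) and Htr2a (2.17) to Htr2b (0.427). Neighbours whose wild-type ranges overlapped were Htr7 and Htr4, Htr4 and Htr1b, Htr1b and Htr1f, and Htr1a and Htr2a. In mutants the upper part of the order was the same down to Htr7 (7.04), and below it came Htr1b (6.07), Htr4 (3.02), Htr1f (1.78), Htr2a (1.68), Htr1a (0.795) and Htr2b (0.394). Htr1a thus stood below Htr2a in mutants, where the ranges of that pair did not overlap. Neighbours whose mutant ranges did overlap were Htr3b and Htr7, Htr7 and Htr1b, and Htr1f and Htr2a. Within the Htr1 class, Htr1a made up 8.04% ± 0.619 of the summed level in wild types and 2.38% ± 0.324 in mutants (SD, n = 4 each).

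Summed by coupling, the channel subunits held 59.3% ± 3.25 of all receptor RNA per kilobase in wild types and 53.8% ± 3.32 in mutants (SD, n = 4 each). The Gi/o-coupled class held 28.8% ± 2.82 and 33.9% ± 2.20. Gs-coupled receptors held 9.56% ± 0.397 and 10.2% ± 0.999, and Gq-coupled receptors 2.29% ± 0.590 and 2.12% ± 0.416. Htr3a makes up most of the channel sum and Htr1d most of the Gi/o sum, so the shares of those classes rest mainly on these genes. The Gs sum is made up of Htr4, which fell, and Htr7. Per kilobase, Htr4 averaged 5.22 in wild types and 3.02 in mutants, and Htr7 averaged 5.89 and 7.04. Shares within a sample sum to the whole, and they are given as a description.

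**Figure D3:**
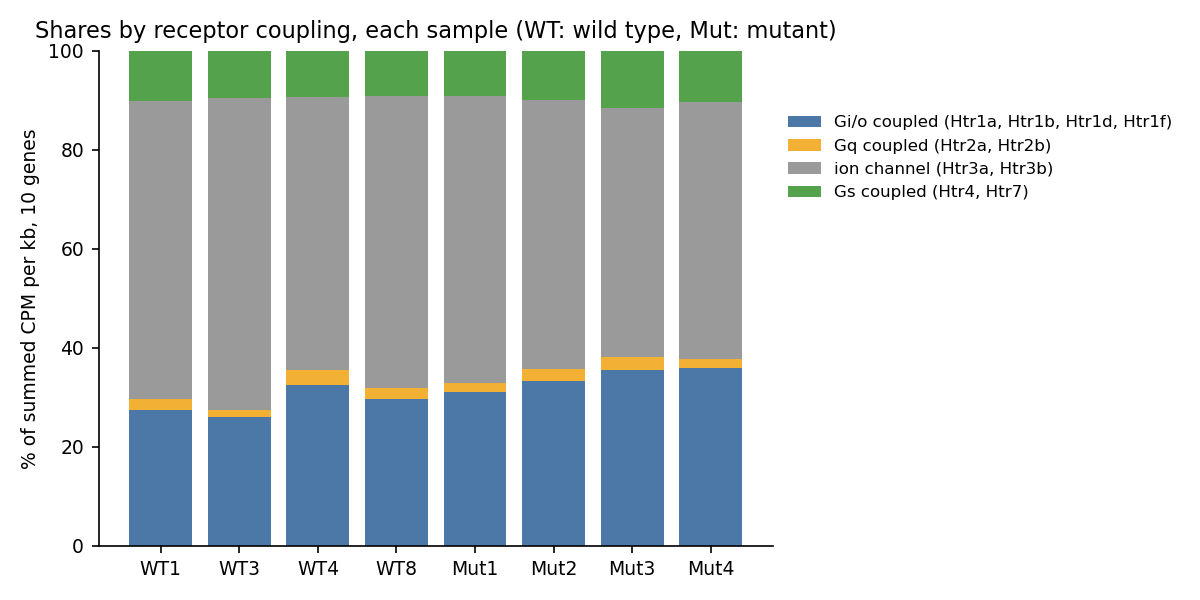
Stacked bars of the share of the summed receptor RNA (percent of CPM per kilobase, vertical axis) held by each coupling class in each mouse (WT, wild type; Mut, mutant). The channel class takes 55.1% to 63.0% in wild types and 50.4% to 58.0% in mutants.

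The genes most like each fallen receptor across the 8 mice were found by the smallest root mean square difference of log2 CPM, each gene taken relative to its own wild-type mean, among 13141 genes. For Htr1a they were Npy2r (0.223), Pde4c (0.257), Osmr (0.310), A230052G05Rik (0.331) and Arhgef19 (0.373). For Htr1f they were Slc22a18 (0.263), Npy2r (0.269), Hrh1 (0.284), Plaur (0.300) and Gm16702 (0.314). For Htr4 they were Mrgprd (0.120), Tmem45b (0.125), Kcng3 (0.135), Lpar3 (0.142) and Trpc6 (0.143). Osmr is on the NP3 list used below, Hrh1 on the NP2 list, and Mrgprd and Lpar3 on the NP1 list. With each gene set to its own wild-type mean, the measure mostly picks genes with a fall of like size. For Htr4, the differences of the nearest genes ran from -0.88 to -0.71. A place on a class list therefore does not show that the genes are made in the same cells. Genes share the same mice and libraries here, so likeness is a description.

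Markers of the NP3, NP1 and NP2 classes fell beside the 3 receptors, and some markers of the other neuron classes were called. Of all genes tested, 2.64% were called lower and 2.81% higher, the shares to set beside the counts that follow. The marker lists were chosen with earlier results of these data known, so their counts are a description and not a test of the classes. Of 7 NP3 markers, 6 fell, 7 of 7 NP1 markers fell and 3 of 5 NP2 markers fell, with median differences of -2.32, -0.67 and -0.79. Of the NP2 calls, Mrgpra3 was called under 9 of 21 alternatives, Mrgprx1 under 18 and Hrh1 under 20. Mrgpra3 was lost without wild type 1 or 8 or mutant 1, 2 or 4, and with Xist as a covariate. Summed CPM of the NP3 list was 662 to 707 in wild types and 455 to 495 in mutants, most of it from the widely expressed kinase Jak1, and that of the NP1 list was 1418 to 1538 and 787 to 1135. Of 7 peptidergic markers 1 fell (Calcb, called under 13 of 21 alternatives), and of 8 pan-neuronal markers 2 fell (Syt1, called under 18, and Avil, under 13; list median -0.10). Summed pan-neuronal CPM overlapped, at 8533 to 9414 in wild types and 8503 to 9155 in mutants. Of the satellite glia and Schwann cell lists, 2 of 6 and 2 of 7 genes rose and none fell. A single gene rose and none fell in the lists of C low-threshold mechanoreceptors (of 5 tested), immune cells (of 6), fibroblasts (of 6) and central nervous system cells (of 5). In large neurofilament neurons 1 of 8 rose (Calb1, 0.54) and 1 fell (Ret, -0.31), with a list median of 0.16. Calb1 was called under 16 of 21 alternatives and Ret under 20. Markers of mast cells and platelets, smooth muscle, endothelium, red blood cells and skeletal muscle had no call in limma, and summed skeletal muscle CPM was 3.49 to 32.9 in wild types and 10.5 to 155 in mutants. No list had a median below that of the NP3 markers. The part of neuron class markers in the fall of Htr1a, Htr1f and Htr4 was not tested.

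**Figure D4:**
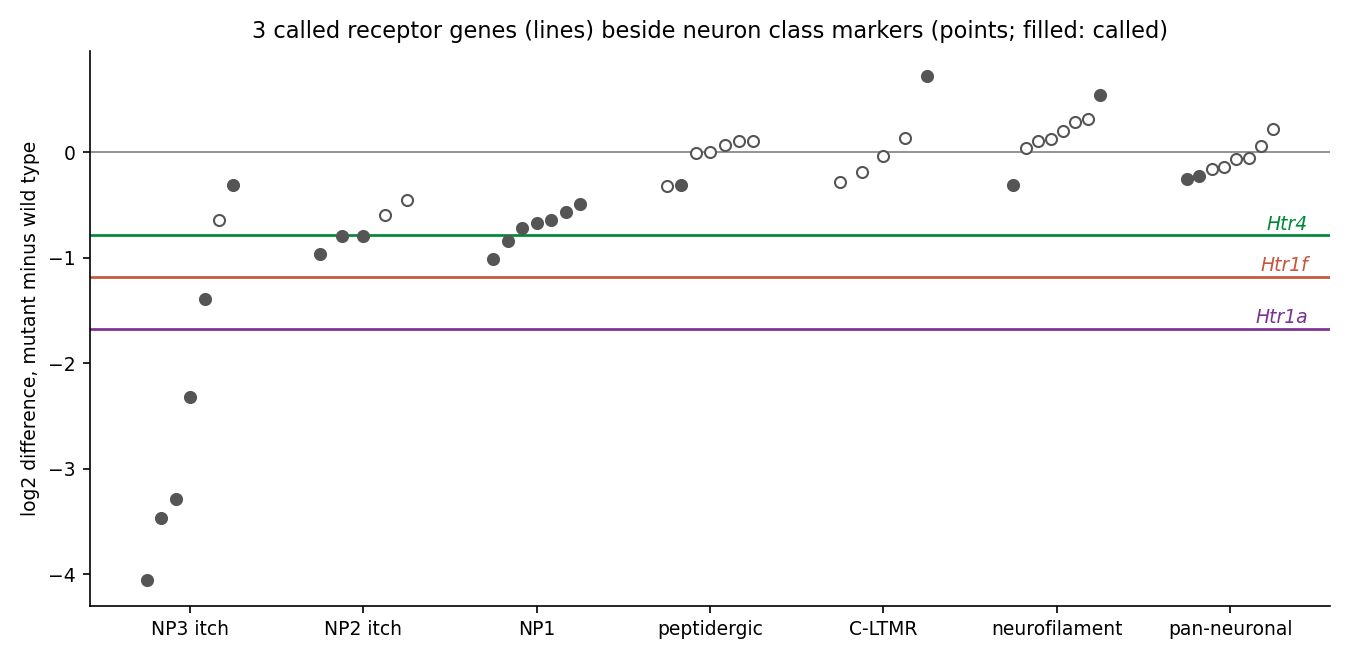
Log2 differences (mutant minus wild type, vertical axis) of the markers of each neuron class, with 1 point per gene, filled where called, and horizontal lines at the values of Htr4, Htr1f and Htr1a. NP3 markers lie between -4.06 and -0.31, and Htr1f at -1.18 lies inside that range.

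Htr1f was set against the mean of the 7 NP3 markers within each mouse. Htr1f was -0.89, -0.81, -1.29 and -0.98 log2 units from that mean in wild types 1, 3, 4 and 8, and 0.56, -0.13, -0.30 and 0.03 units from it in mutants 1 to 4. The groups did not overlap, and the offset was higher by 1.03 in mutants. The mean log2 CPM of the 7 markers was 4.43 in wild types and 2.22 in mutants. The list was chosen with the low values of its genes in these mutants known, so the offset is a description and no p is given. Differences of the single markers ran from -4.06 to -0.31, a range that holds the -1.18 of Htr1f. Nppb, with 0 or 1 read in every mutant, was at least 7.60-fold lower (3 reads per mutant library as floor), and the offset was 0.95 with Nppb at that bound. The offset was 1.72 without Nts and Jak1, which are also made outside this class, and 0.70 with 1 CPM added before the logarithm.

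Genes that act downstream of the receptors were taken from lists chosen with earlier results of these data known, and most were not called. Over all genes tested, 2.64% were called lower and 2.81% higher, shares that also stand beside the list counts in the paragraphs that follow. In the Gq pathway, 5 of 13 genes fell and 1 rose, with a list median of 0.14. Those that fell were the G proteins Gna14 (-0.67) and Gnaq (-0.37), the phospholipase Plcb3 (-0.61) and the kinases Prkca (-0.59) and Prkce (-0.30), and the calcium release channel Itpr3 rose by 0.40 (limma adjusted p at most 0.0149 for each). Plcb3 and Prkca were called under all 21 alternatives, Gna14, Gnaq and Itpr3 under 20 and Prkce under 19, its call being lost without wild type 1 and with no variance trend. Plcb3 stood at 792 ± 40.8 CPM in wild types and 523 ± 67.0 in mutants (SD, n = 4 each). In the Gi/o pathway, 1 of 8 genes fell: Gnao1, the alpha subunit of Go, at 1014 ± 29.0 and 701 ± 95.9 CPM, with a difference of -0.54 (limma adjusted p = 0.0021).

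In the Gs and cyclic AMP pathway, 1 of 15 genes fell and 2 rose, with a median of 0.04. Gnal, an alpha subunit that stimulates adenylyl cyclase, fell by 0.46 on the log2 scale. Rapgef3 and Rapgef4, exchange factors that cyclic AMP activates, rose by 0.78 and 0.23, and they were called under 19 and 9 of 21 alternatives. Rapgef4 was lost with median centring, with Xist as a covariate and with no variance trend. It was also lost without any 1 of wild types 1, 4 and 8 and mutants 1 to 4. Among 10 receptor partners, Grk2, a kinase that desensitizes receptors, fell by 0.31 (limma adjusted p = 0.0144; not called without wild type 1 or without mutant 1), and Ric3, a chaperone of channel subunits, differed by 0.06 (adjusted p = 0.683). Of 3 TRP channels that serotonin receptors are known to sensitize, Trpa1 was called (-0.29, limma adjusted p = 0.0335). Trpa1 was called under 12 of 21 alternatives. Its call was lost without wild type 3 or 8 or mutant 2, 3 or 4, and with Xist as a covariate. Trpv1 (-0.32, limma adjusted p = 0.0579) and Trpv4 (0.27, adjusted p = 0.595) were not called.

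**Figure D5:**
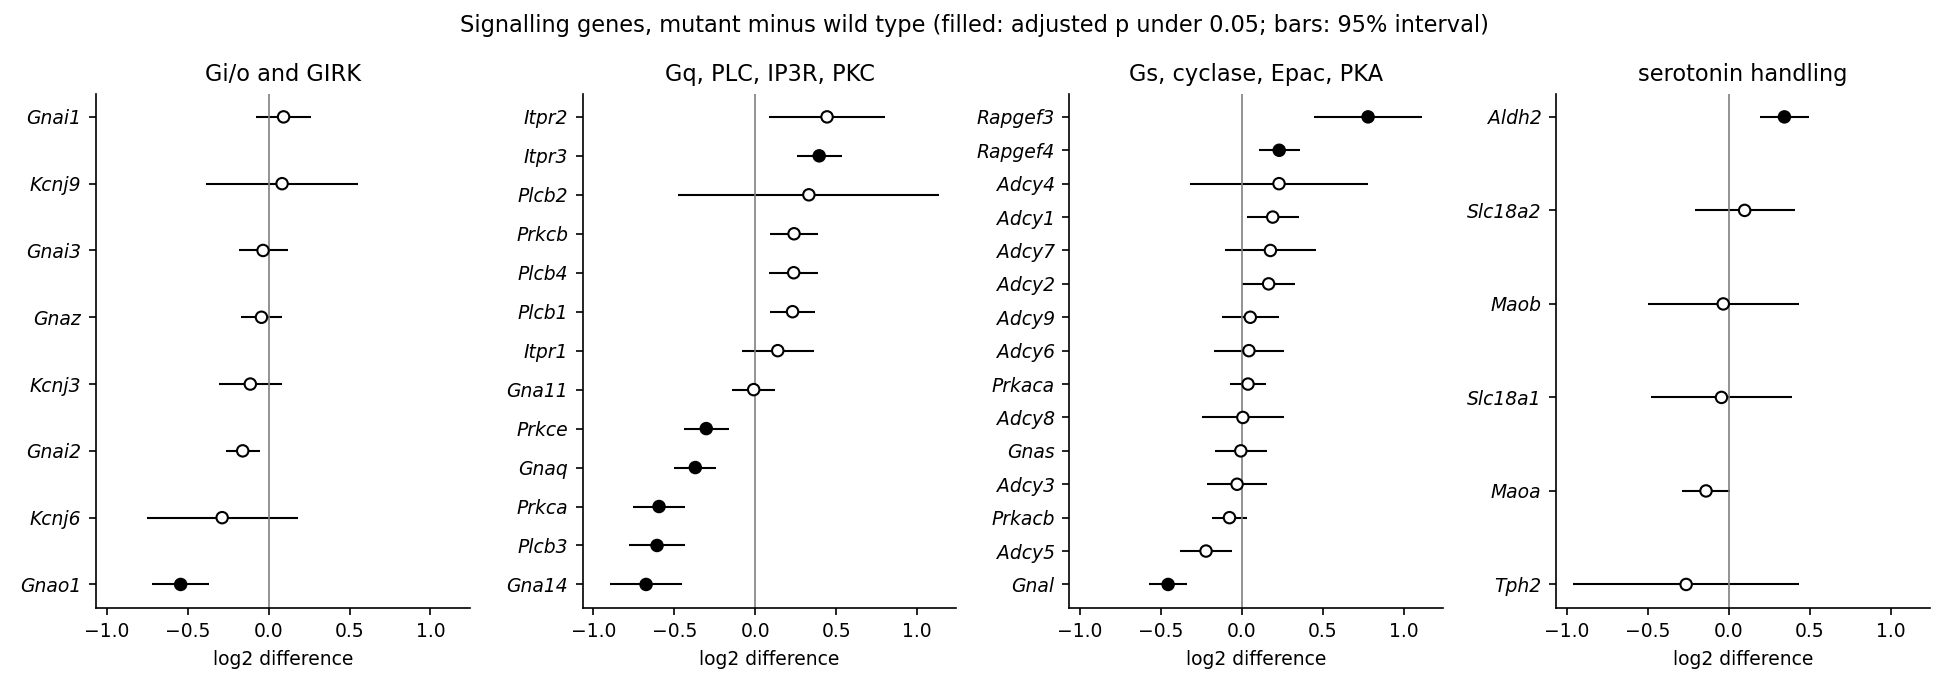
Log2 differences (mutant minus wild type, horizontal axis) of the tested genes of 4 lists (Gi/o, Gq and Gs signalling and serotonin handling), with 95% intervals from limma as bars and filled points where called. In the Gq panel, 5 of 13 genes are filled below 0 and 1, Itpr3, above it.

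Other members of the channel's superfamily were 10 tested genes, of which 1 fell and 2 rose. Chrna6, a nicotinic receptor subunit, fell by 0.57 (limma adjusted p = 0.0048), Chrna7 rose by 0.27 and Gabra2 by 1.07, the latter 2 called under 14 and 10 of 21 alternatives. Chrna7 was lost with median centring and without wild type 1 or mutant 1 or 4, and Gabra2 with quantile normalization and without wild type 1, 4 or 8 or mutant 1 or 4. Of the genes that make, carry or break down serotonin, 1 of 6 tested was called: Aldh2, an aldehyde dehydrogenase that acts after monoamine oxidase, rose by 0.34 (limma adjusted p = 0.012). Maoa (-0.14, adjusted p = 0.265) and Slc18a2, the vesicular monoamine transporter (0.10, adjusted p = 0.747), were not called. Tph1, Ddc and Slc6a4, for serotonin synthesis and uptake, had too few reads to be tested. Tph2, also for synthesis, had 3 to 9 reads per sample and was not called (-0.26, limma adjusted p = 0.695). Of the receptor genes outside the 10, Htr5a (0.11, limma adjusted p = 0.728) and Htr5b (-0.22, adjusted p = 0.475) were not called, and Htr2c and Htr6 had at most 10 reads in a sample.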

How the data were processed

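Total RNA from dorsal root ganglia of 8 mice was sequenced, and the authors' deposited table holds log2 CPM, per the file headers: log2 of reads scaled by library size after adding a small prior count. The submitters' processing notes name Salmon 0.11.1, DESeq2 and the build mm9, with no role given. The table had 41422 lines and 40800 distinct identifiers, and the 402 listed more than once were used once. All 163004 values above the floor of -1.79 were whole reads within tolerance after the floor was removed (100.0%), which gave back reads and library totals. The tolerance was 0.02 of 1 read for low counts. It widened in proportion to the reads for high counts, where it could not tell whole reads from others. Log2 CPM rebuilt from the recovered reads with a prior of 2 differed from the deposited values by at most 4.97e-14. Reads are not independent molecules, so floors cover counting error only.

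Running numbers in the column names, not explained in the labels, follow each other for mutants and not for wild types, and a batch in them cannot be told apart from genotype. Genotypes were compared in limma 3.58.1 (R 4.3.3; lmFit, then eBayes with a variance trend), two-sided, over 15030 genes with log2 CPM above 0 in at least 4 of 8 samples, with Benjamini-Hochberg adjustment over all of them. Single values were compared by exact permutation over 70 assignments. The procedure was tested on simulated data. Gene symbols of 4 list genes were matched by older names. Positions and exon lengths come from GENCODE M21 (GRCm38), not from the build the submitters name, so levels per kilobase rest on that annotation. Shared sequence was searched with blastn 2.17.0. Other tools were Python 3.11.15, pandas 2.3.3, numpy 2.4.6, scipy 1.17.1 and matplotlib 3.10.9. The members and the gene lists were chosen with earlier results of these data known. The rule for naming genes took the 10 members, Tmem184b, called genes of the lists, defining markers where a result turns on them, and the 5 nearest profiles of each called member. Other list genes that were not called or not tested, such as Ric3, Trpv1, Maoa and Htr5a, were named outside it, after their values were seen. Alternatives covered the filter, prior, scaling, voom on the recovered reads, weights, the variance model, Xist as a covariate, the replicate block, the threshold and leaving out each sample.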

Additional observations from a re-analysis of the deposited data

How the results depend on the processing

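Htr1a and Htr1f were called under all 21 alternatives and Htr4 under 20, with estimates from -1.80 to -1.51, -1.32 to -1.03 and -0.89 to -0.69. Htr4 was lost with no variance trend, where 67 genes were called higher, 75 lower and 2 members remained called, Htr1a and Htr1f. Htr3a was called under 4 alternatives, and its adjusted p ranged from 0.0099 to 0.204. With calls at an adjusted p under 0.1, 876 genes were higher, 612 lower, and 5 members were called, Htr1d and Htr3a being added. Median centring gave 204 higher and 706 lower, and quantile normalization 271 higher. Leaving out 1 mouse at a time gave 174 to 572 genes higher, 230 to 427 lower and 3 to 4 members called. The sign of Htr2b turned without mutant 1: its difference ran from -0.34 to 0.052 when 1 mouse was left out. For those fits and the others, no other member changed sign. The offset of Htr1f from the NP3 markers ranged from 0.70 to 1.72 over 11 alternatives.

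Samples with the same number in both genotypes deviated together only weakly (r of 0.081, 0.041 and 0.058 across genes for numbers 1, 3 and 4). Weak correlations cannot show whether the numbers pair the mice, and the labels do not say. A fit of those 6 samples with a replicate block called 326 genes higher, 345 lower and 3 members, and the same samples without the replicate block called 180 higher, 267 lower and 3 members. Depth limits Htr2b most, with 3 to 9 reads per sample.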
